A study of Solanum tuberosum with 8 samples.

Results

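Enzymes that make amino acids were followed by 69 probes of a potato leaf microarray, out of 42034 probes for potato transcripts on the array. The members are the probes that the study's table of drought-responsive genes places in the MapMan category of amino acid synthesis, apart from the contigs of asparagine synthetase. They were thus chosen by their drought response in either genotype, on these same arrays. What they did under drought within a line is therefore given below as a description, with no test. The comparison of the lines within a treatment was not used in the choice, although it shares arrays with the comparisons that were. The 69 probes stand for 60 units when contigs with the same number are counted once, and 13 of them have a category but no described protein hit. By amino acid family they divide into 13 probes of central metabolism (GABA and alanine), 4 of the glutamate family, 17 of the aspartate family, 9 of the branched-chain group, 4 of the serine-glycine-cysteine group, 21 of the aromatic group and 1 of histidine. Probes of the same contig may read the same transcript and are no replicates of each other.

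The groups were *Stpfld252* leaves under drought, WT leaves under drought, *Stpfld252* leaves under control conditions and WT leaves under control conditions, with 2 arrays each. *Stpfld252* is 1 transgenic line of potato (*Solanum tuberosum* cv Solara) that expresses a cyanobacterial flavodoxin (Fld), an electron shuttle, targeted to plastids and driven by the constitutive CaMV 35S promoter. WT siblings carried no transgene, drought was 3 days without water, and controls stayed on the watering regime. Leaves of the fifth node came from pots in a growth chamber, and each array held a pool of plants, so that p-values measure only the spread between these pools. In pooled leaves, fewer cells of a type and less RNA per cell cannot be told apart.

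Plants build their amino acids from a few carbon skeletons, many of the steps being in the plastid. Aspartate gives lysine, threonine, methionine and isoleucine, pyruvate gives alanine, valine and leucine, glutamate gives proline, arginine and GABA, and the shikimate pathway gives phenylalanine, tyrosine and tryptophan. Free proline, GABA and branched-chain amino acids are known to accumulate in leaves short of water, through synthesis, slower breakdown or protein turnover.

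Signal exceeded the local background 3.64- to 4.45-fold at the median spot, 0 spots were saturated, and replicate arrays differed with an SD of 0.122 to 0.156 on the log2 scale over all 36250 probes tested. All 69 members passed the filter on dim probes, and 67 were well above background on all 8 arrays. The 4 drought arrays shared 1 slide and the 4 control arrays another, so that slide and treatment cannot be told apart. Within each slide, *Stpfld252* had array positions 1 and 2 and WT positions 3 and 4, so that position and genotype cannot be told apart either. As a check of the labelled tissue, 15 probes of the Rubisco small subunit, a leaf protein, summed to a normalized signal of 343000 and 355000 in *Stpfld252* under drought, 98400 and 96100 in WT under drought, 383000 and 386000 in *Stpfld252* controls and 355000 and 359000 in WT controls. Of 20 probes of patatin, the storage protein of tubers, 4 to 11 were well above background on both arrays of a group, and their summed signal was 30000 and 30100 in *Stpfld252* against 20700 and 20800 in WT under drought, and 27000 and 25700 in *Stpfld252* against 19600 and 17000 in WT under control conditions. Of the 13 Rubisco probes tested, 4 were called higher in *Stpfld252* under drought, and of the 14 patatin probes tested, 7 were called higher in *Stpfld252* in each treatment. The part of either list in the differences below was not tested.

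Across all 69 members, values are normalized log2 intensities, and a probe was called when its adjusted p in limma was under 0.05 and its change over 2-fold. Under drought, 15 members were higher in *Stpfld252* than in WT and 12 were lower. Over all probes tested, 5.9% were called higher and 4.88% lower in that comparison. The other 1681 probes of the part of the drought table that was analysed are a closer background, because they were chosen the same way: 21% of them were higher and 19.3% lower in *Stpfld252* under drought. The 27 called members were 39.1% of the 69, near the 40.3% called in either direction among those other probes and above the 10.8% of all probes. Under control conditions 11 members were higher in *Stpfld252* than in WT and 1 was lower, where 3.78% and 2% of all probes tested, and 11.1% and 6.96% of the other probes of the drought table, were called. In either direction the 12 members were 17.4% of the list, near the 18.1% among those other probes and above the 5.78% of all probes. The median difference of the members was 0.05 under drought and 0.13 under control conditions, and over all probes tested it was -0.03 and -0.04.

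In *Stpfld252* leaves 17 members were called induced by drought and 20 repressed, where 5.61% and 7.76% of all probes tested were called. In WT leaves 28 members were called induced and 25 repressed, where 8.2% and 10% of all probes were. In either direction these calls took in 13.4% of all probes for *Stpfld252* and 18.2% for WT. The response was higher in *Stpfld252* than in WT for 13 members and lower for 22, against 5.82% and 5.97% of all probes, 11.8% in all. Because these contrasts chose the members, nothing is read from the counts. In the same fit all 69 met the call rule in at least 1 line, which the choice of members favours, and 21 in both. Neither count was made over all probes, and nothing is read from them. Nearest to the 2-fold limit inside the list were cPRO15B14TH, with a change of 1.03 on the log2 scale in WT, and MICRO.65.C1, with 1.04 in *Stpfld252*. Of the probes that share a contig number with a member but are not in the table, the nearest were MICRO.2810.C1, at 1.06 in *Stpfld252*, and MICRO.2810.C3, at -0.99 in WT. Relative to WT controls, the median of the 13 central members was -0.08 in *Stpfld252* under drought and -1.21 in WT under drought. The branched-chain median was 0.49 in *Stpfld252* and 1.08 in WT under drought, and the aromatic median -0.25 in *Stpfld252* and -0.90 in WT. WT under drought held the lowest of the 4 group means for 27 members and the highest for 23, and *Stpfld252* under drought held the lowest for 8 and the highest for 13. The choice of members by drought response favours drought groups at the extremes. These counts were not made over all probes, and nothing is read from them.

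**Figure D1:**
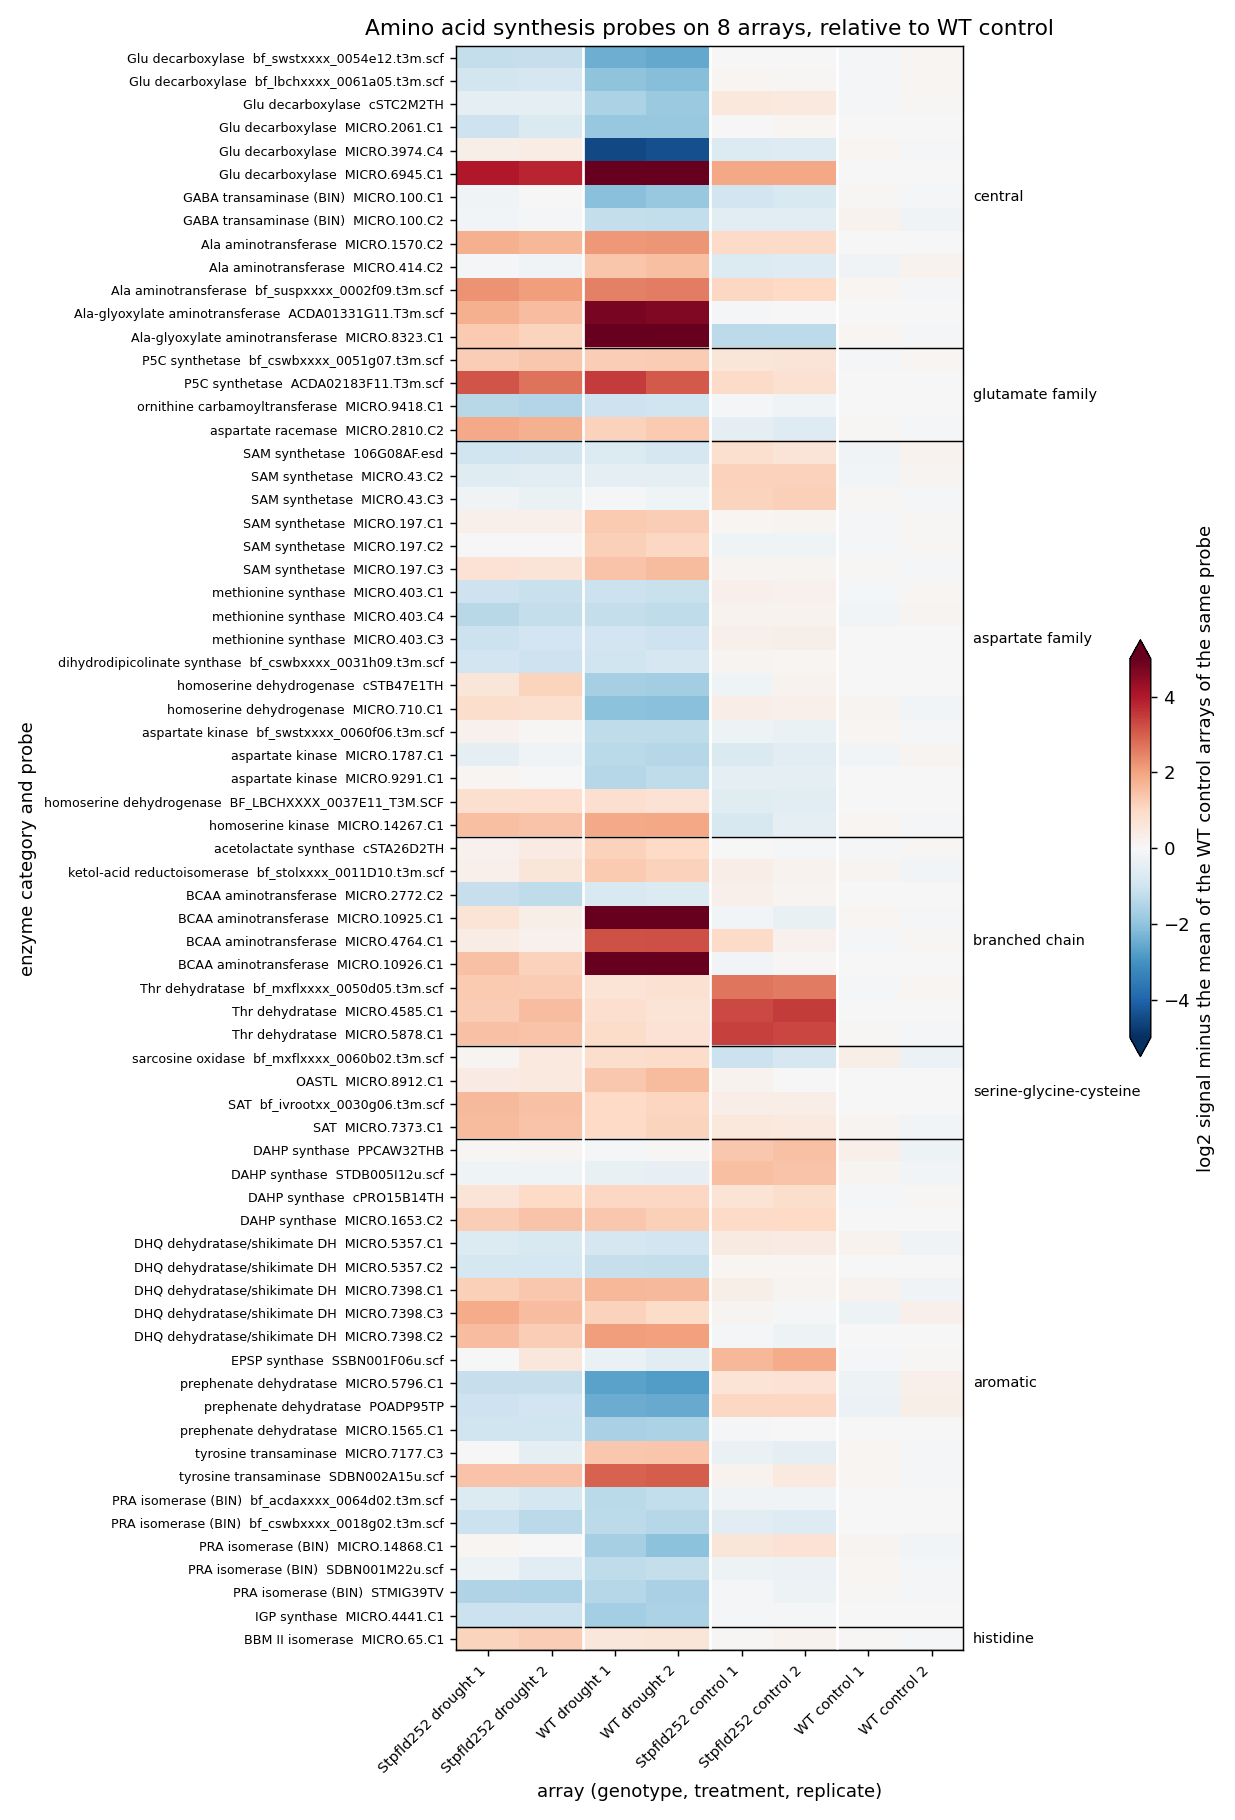
Normalized log2 signal of each of the 69 probes (rows, grouped by amino acid family) on each of the 8 arrays (columns), minus the mean of the 2 WT control arrays of the same probe. The colour scale ends at -5 and 5, and the deepest reds and blue lie in the WT drought columns, at the branched-chain aminotransferases, alanine-glyoxylate aminotransferases and 2 glutamate decarboxylases.

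**Figure D2:**
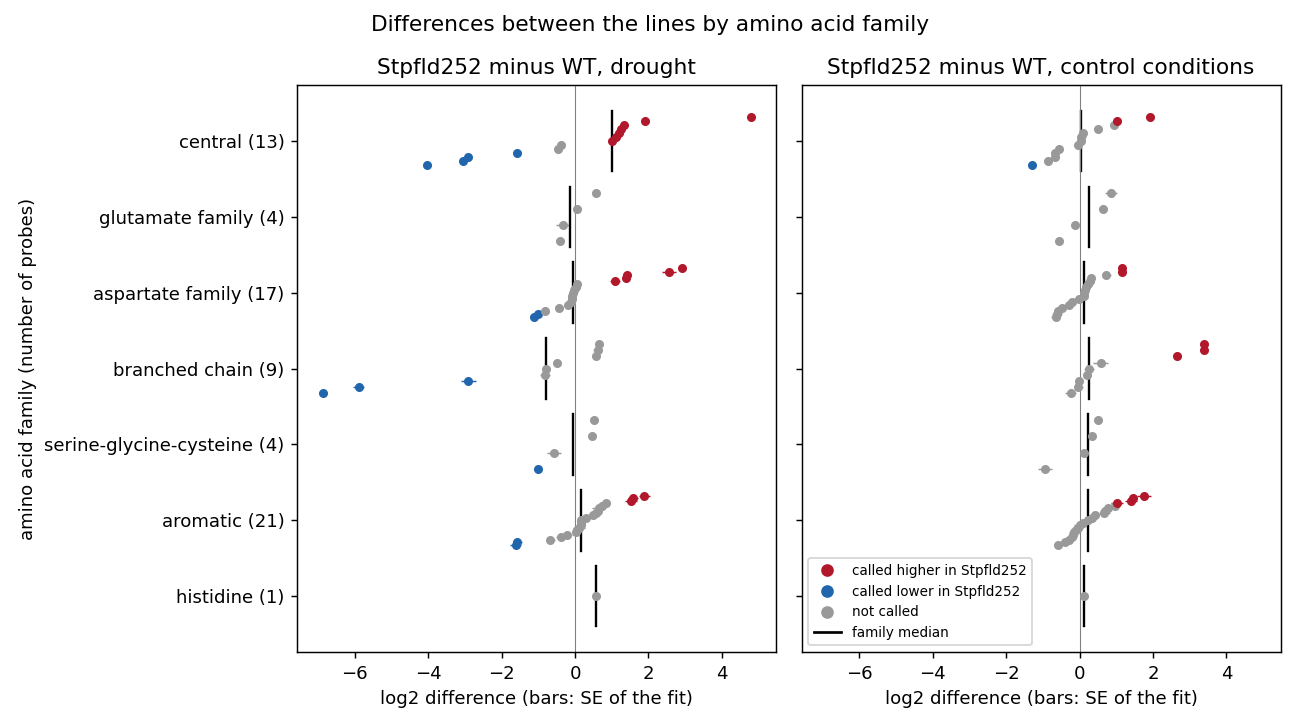
Log2 difference of *Stpfld252* minus WT for each probe under drought (left panel) and under control conditions (right panel), by family, with bars for the SE of the fit, colours for the calls and a black line at the family median. The range was -6.87 to 4.78 under drought and -1.31 to 3.39 under control conditions.

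The widest gap between the lines at a single probe lay in the branched-chain group, under drought. As a family, the central members differed more, with a median absolute log2 difference of 1.33 under drought against 0.78 for the branched-chain members. Branched-chain aminotransferase catalyses the last step of leucine, isoleucine and valine synthesis and, in mitochondria, the first of their breakdown. MICRO.10926.C1, described as this enzyme, read 7.13 and 6.84 in *Stpfld252* and 13.82 and 13.88 in WT under drought, and 5.54 and 5.74 in *Stpfld252* and 5.65 and 5.69 in WT under control conditions. The WT drought arrays stood far above the other 6, and the control groups overlapped. It was 117-fold lower in *Stpfld252* than in WT under drought (log2 difference -6.87 ± 0.11, SE, adjusted p = 2.5e-08), and the control difference was -0.03 (adjusted p = 0.85). Drought induced it by 1.35 on the log2 scale in *Stpfld252* and by 8.18 in WT, the largest drought change of any member.

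A neighbouring contig of the same enzyme, MICRO.10925.C1, read 6.09 and 5.67 in *Stpfld252* and 11.81 and 11.74 in WT under drought, and 5.25 and 5.04 in *Stpfld252* and 5.49 and 5.30 in WT controls. It was 59.3-fold lower in *Stpfld252* under drought (-5.89 ± 0.15, adjusted p = 9.1e-08). MICRO.4764.C1 had the same shape at a smaller size, with 6.18 and 6.05 in *Stpfld252* and 9.01 and 9.04 in WT under drought, and 6.77 and 6.03 in *Stpfld252* and 5.77 and 5.88 in WT controls. The gap of 0.74 between its *Stpfld252* control arrays was the widest between replicates of any member. It was 7.5-fold lower in *Stpfld252* under drought (-2.91 ± 0.20, adjusted p = 1.4e-05). The remaining aminotransferase probe, MICRO.2772.C2, went another way: its drought change was -1.42 in *Stpfld252*, which was called repressed, and -0.73 in WT, and it differed between the lines by -0.48 under drought and 0.20 under control conditions, neither of which passed the 2-fold limit.

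Threonine dehydratase (threonine ammonia-lyase) opens isoleucine synthesis by deaminating threonine, and in tomato and tobacco it is also known as a jasmonate-responsive defence protein. Its 3 probes separated the lines in the watered plants. MICRO.5878.C1 read 10.81 and 10.79 in *Stpfld252* and 10.26 and 10.06 in WT under drought, and 12.78 and 12.69 in *Stpfld252* and 9.42 and 9.28 in WT controls. The *Stpfld252* control arrays were the highest of the 8, and the WT control arrays the lowest. The probe was 10.4-fold higher in *Stpfld252* than in WT under control conditions (3.38 ± 0.10, adjusted p = 6.7e-07) and differed by 0.64 under drought, within 2-fold. MICRO.4585.C1 read 12.04 and 12.23 in *Stpfld252* controls and 8.73 and 8.76 in WT controls, a 10.5-fold difference (3.39 ± 0.12, adjusted p = 1.6e-06), and 10.00 and 10.27 in *Stpfld252* against 9.60 and 9.43 in WT under drought. For bf_mxflxxxx_0050d05.t3m.scf, which has no described hit, the control difference was 2.64 ± 0.08 (adjusted p = 1.1e-06). Drought changed the 3 probes by -1.35 to -2.0 in *Stpfld252*, each called repressed, and by 0.73 to 0.81 in WT, none of them past 2-fold. The *Stpfld252* control arrays enter both the control difference and the drought response of *Stpfld252*, so these are not separate pieces of evidence.

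Upstream of the aminotransferase, acetolactate synthase and ketol-acid reductoisomerase carry out the first shared steps of branched-chain synthesis. The acetolactate synthase probe cSTA26D2TH was induced by 1.08 in WT, with a change of 0.33 in *Stpfld252*, and differed between the lines under drought by -0.78. Without replicate 1 of WT under drought its change in WT was 0.99, no longer called. For the reductoisomerase probe bf_stolxxxx_0011D10.t3m.scf the drought change was 0.17 in *Stpfld252* and 1.24 in WT, and the line difference under drought was -0.81. Neither line difference reached 2-fold. Of the 9 branched-chain members, 3 were lower and 0 higher in *Stpfld252* under drought, and 3 were higher and 0 lower under control conditions. Their median difference was -0.78 under drought and 0.25 under control conditions. Over all probes tested, 5.9% were called higher and 4.88% lower under drought, and 3.78% and 2% under control conditions. For the other probes of the drought table these shares were 21% and 19.3% under drought, and 11.1% and 6.96% under control conditions.

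**Figure D3:**
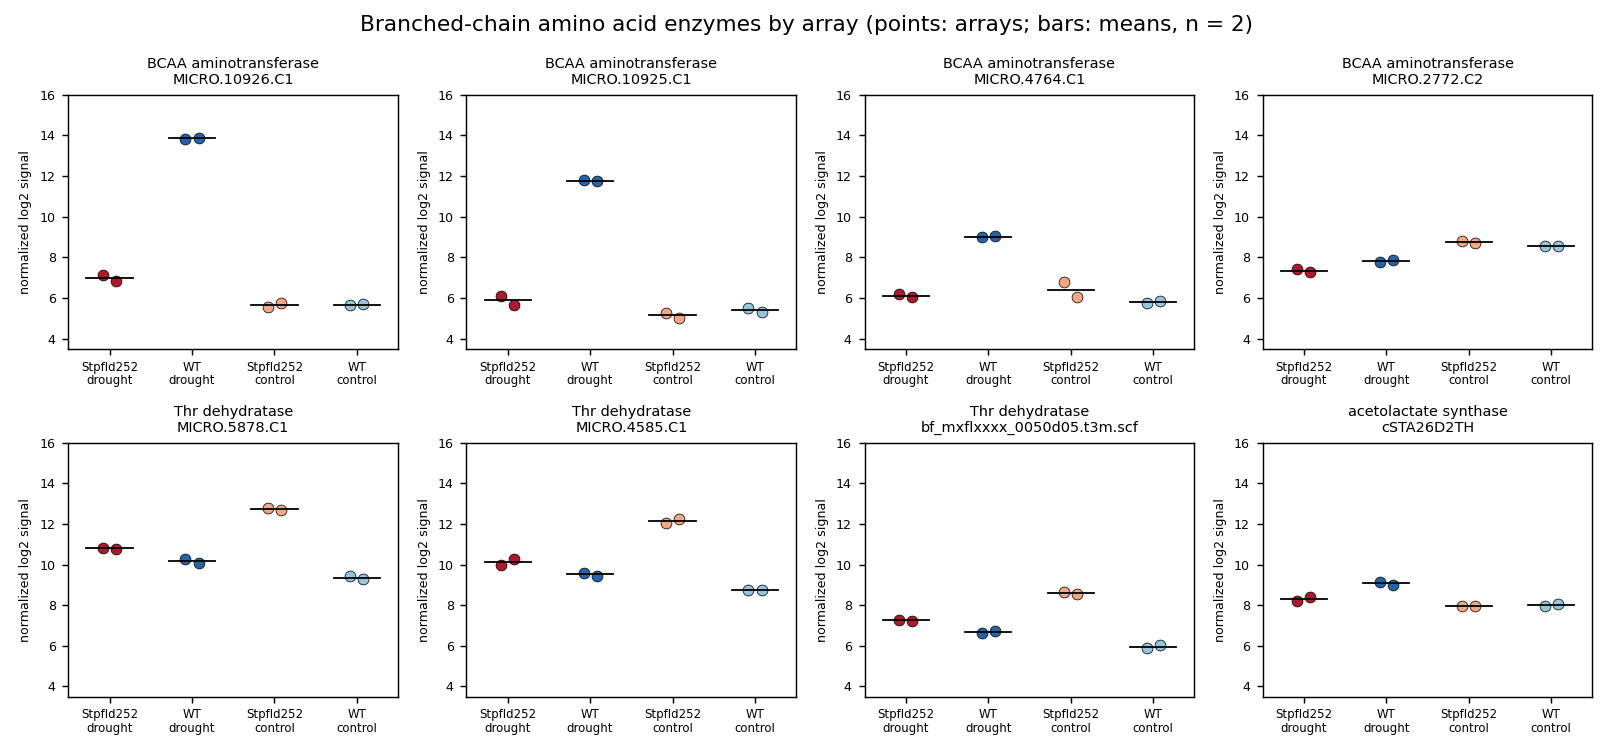
Normalized log2 signal of 8 branched-chain probes on each array (points) with the mean of the 2 arrays (bars), by group from left to right *Stpfld252* drought, WT drought, *Stpfld252* control and WT control. In 3 aminotransferase probes the WT drought group stands alone at the top, with means from 9.02 to 13.85, and in the 3 threonine dehydratase probes the *Stpfld252* control group does.

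Central metabolism held probes that moved in opposite directions for the same reaction. Glutamate decarboxylase makes GABA from glutamate, and 6 probes carry its category. MICRO.3974.C4, described as isozyme 3, read 10.68 and 10.76 in *Stpfld252* and 5.88 and 5.99 in WT under drought, and 9.71 and 9.76 in *Stpfld252* and 10.51 and 10.28 in WT controls. Here the WT drought arrays lay below the other 6. The probe was 27.5-fold higher in *Stpfld252* under drought (4.78 ± 0.10, adjusted p = 5.1e-08), and the control difference was -0.66. Its drought change was 0.99 in *Stpfld252*, not past 2-fold, and -4.46 in WT, which was called repressed.

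MICRO.6945.C1 behaved the other way. It read 10.33 and 10.12 in *Stpfld252* and 13.16 and 13.13 in WT under drought, and 8.23 and 8.22 in *Stpfld252* and 6.27 and 6.33 in WT controls, so that none of the 4 groups overlapped. It was 7.57-fold lower in *Stpfld252* than in WT under drought (-2.92 ± 0.09, adjusted p = 2e-07) but 3.8-fold higher under control conditions (1.92 ± 0.09, adjusted p = 4e-06). Drought induced it 3.99-fold in *Stpfld252* and 115-fold in WT. The other 4 glutamate decarboxylase probes were brighter under drought in *Stpfld252* than in WT by 1.00 to 1.33 on the log2 scale, and all 4 were called. Of these, bf_swstxxxx_0054e12.t3m.scf read 11.43 and 11.49 in *Stpfld252* and 10.17 and 10.09 in WT under drought, against 12.65 and 12.66 in *Stpfld252* and 12.54 and 12.71 in WT controls (1.33 ± 0.08, adjusted p = 8.1e-06). MICRO.2061.C1, at 1.00 ± 0.11 (adjusted p = 0.00018), stood at the 2-fold limit and lost its call without replicate 2 of *Stpfld252* under drought, at 0.84, and without replicate 2 of WT under drought, at 0.999. In WT, drought changed these 4 by -1.72 to -2.50, and in *Stpfld252* by -0.93 to -1.20.

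GABA transaminase breaks GABA down to succinic semialdehyde. The 2 probes filed under it, MICRO.100.C1 and MICRO.100.C2, are described as a viroid RNA-binding protein of tomato, which is not that enzyme by name. MICRO.100.C1 read 12.56 and 12.76 in *Stpfld252* and 10.65 and 10.86 in WT under drought, and 11.78 and 11.97 in *Stpfld252* and 12.81 and 12.66 in WT controls, a difference of 1.91 ± 0.12 under drought (adjusted p = 6.6e-06) and of -0.86 under control conditions. MICRO.100.C2 differed by 1.11 under drought (adjusted p = 0.00011). Their drought changes of 0.79 and 0.45 in *Stpfld252* were not called, while both were repressed in WT, at -1.98 and -1.21.

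Alanine-glyoxylate aminotransferase converts glyoxylate to glycine with alanine as the amino donor, a step of photorespiration in leaf peroxisomes and, for other forms, of mitochondria. MICRO.8323.C1 is described as a putative aminotransferase, alanine-glyoxylate or beta-alanine-pyruvate, which does not settle the enzyme. This probe read 9.82 and 9.63 in *Stpfld252* and 13.78 and 13.73 in WT under drought, and 7.19 and 7.21 in *Stpfld252* and 8.61 and 8.41 in WT controls. It was 16.4-fold lower in *Stpfld252* under drought (-4.03 ± 0.10, adjusted p = 8.7e-08) and 2.48-fold lower under control conditions (-1.31 ± 0.10, adjusted p = 4.5e-05), the single member called lower in the watered line. ACDA01331G11.T3m.scf, of the same category and without a described hit, read 7.72 and 7.49 in *Stpfld252* and 10.70 and 10.60 in WT under drought, and was level in the controls at 5.91 and 5.94 in *Stpfld252* and 5.93 and 6.0 in WT. Its difference under drought was -3.04 ± 0.10 (adjusted p = 2.6e-07). Both were induced by drought in both lines, MICRO.8323.C1 by 2.52 in *Stpfld252* and 5.25 in WT and ACDA01331G11.T3m.scf by 1.68 in *Stpfld252* and 4.68 in WT.

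Alanine aminotransferase exchanges the amino group between alanine and pyruvate. MICRO.1570.C2 and bf_suspxxxx_0002f09.t3m.scf, both described as the pepper enzyme, were induced by drought in WT by 2.19 and 2.54. In *Stpfld252* the change of MICRO.1570.C2 was 0.78, not past 2-fold, and bf_suspxxxx_0002f09.t3m.scf was induced by 1.16. Under control conditions the difference between the lines was 0.95 for MICRO.1570.C2, not called, and 1.01 for bf_suspxxxx_0002f09.t3m.scf (adjusted p = 8.5e-05), whose call was lost without replicate 1 of *Stpfld252* controls, at 0.99, and without replicate 2 of WT controls, at 0.93. MICRO.414.C2, described as a putative alanine aminotransferase and also as glutamate:glyoxylate aminotransferase 2, differed from them. It read 5.80 and 5.69 in *Stpfld252* against 7.26 and 7.39 in WT under drought, a difference of -1.58 (adjusted p = 1.9e-05). In all, 7 of the 13 central members were higher and 4 lower in *Stpfld252* under drought, the highest share called of any family, and 2 were higher and 1 lower under control conditions. All 13 were called for drought in WT, and the WT drought arrays enter this line difference too. Over all probes tested, 5.9% were higher and 4.88% lower under drought, and 3.78% and 2% under control conditions. Among the other probes of the drought table, 21% were higher and 19.3% lower under drought, and 11.1% and 6.96% under control conditions.

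**Figure D4:**
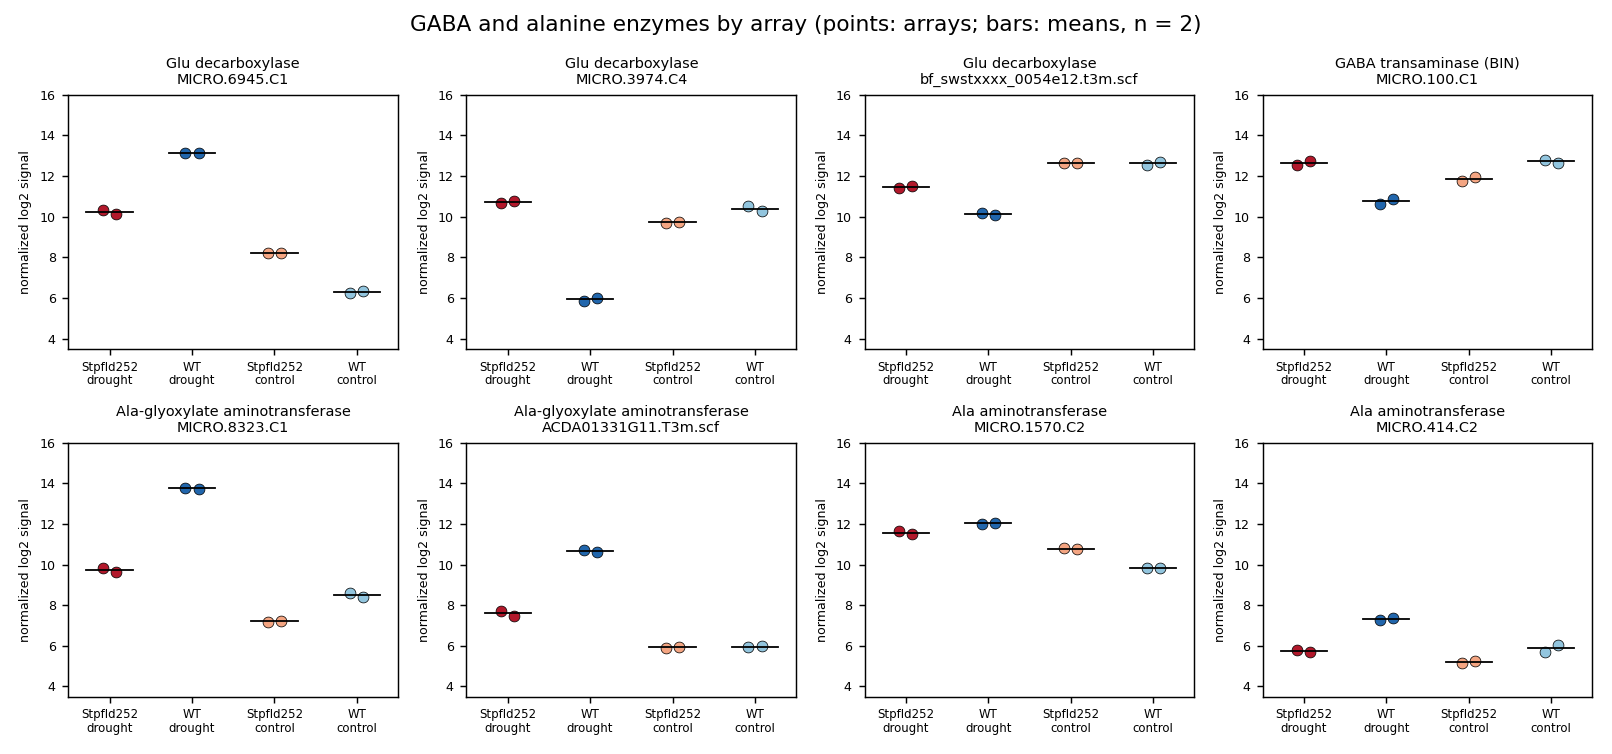
Normalized log2 signal of 8 probes of GABA and alanine metabolism on each array (points) with the mean of the 2 arrays (bars), by group from left to right *Stpfld252* drought, WT drought, *Stpfld252* control and WT control. The WT drought group is the highest of the 4 for MICRO.6945.C1 and both alanine-glyoxylate aminotransferase probes and the lowest for MICRO.3974.C4.

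In the aspartate family, the entry into the pathway separated the lines under drought. Aspartate kinase phosphorylates aspartate and homoserine dehydrogenase makes homoserine, a precursor of threonine and methionine. Plants also have a bifunctional protein with both activities. MICRO.710.C1, described as that protein, read 14.81 and 14.75 in *Stpfld252* and 11.87 and 11.84 in WT under drought, and 14.27 and 14.18 in *Stpfld252* and 14.04 and 13.81 in WT controls. The WT drought arrays were again set apart, here below the rest. It was 7.56-fold higher in *Stpfld252* under drought (2.92 ± 0.10, adjusted p = 3e-07), with a control difference of 0.30.

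The second probe with this description, cSTB47E1TH, read 8.15 and 8.69 in *Stpfld252* and 5.89 and 5.83 in WT under drought, and 7.35 and 7.75 in *Stpfld252* and 7.55 and 7.58 in WT controls. It was 5.9-fold higher in *Stpfld252* under drought (2.56 ± 0.19, adjusted p = 1.6e-05), and its control groups overlapped. The 3 probes of monofunctional aspartate kinase followed at a smaller size, with differences under drought of 1.42 for bf_swstxxxx_0060f06.t3m.scf, 1.38 for MICRO.9291.C1 and 1.08 for MICRO.1787.C1, each of them called. The call of MICRO.1787.C1 was lost without replicate 2 of *Stpfld252* under drought, at 0.94. The drought changes of these 5 probes lay between 0.30 and 0.87 in *Stpfld252*, none of them called, and between -1.28 and -2.07 in WT, all called repressed. A further probe in the homoserine dehydrogenase category, BF_LBCHXXXX_0037E11_T3M.SCF, had no described hit and differed by 0.05 between the lines under drought, with an induction of 1.41 in *Stpfld252* and a change of 0.77 in WT.

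Homoserine kinase phosphorylates homoserine on the way to threonine and methionine. Its probe MICRO.14267.C1 read 9.26 and 9.17 in *Stpfld252* and 9.61 and 9.69 in WT under drought, and 6.94 and 7.23 in *Stpfld252* and 7.84 and 7.63 in WT controls. It was induced in both lines, by 2.13 in *Stpfld252* and 1.91 in WT, and the line differences of -0.43 under drought and -0.65 under control conditions were within 2-fold. Dihydrodipicolinate synthase, the first enzyme committed to lysine, had 1 probe, bf_cswbxxxx_0031h09.t3m.scf, which changed by -1.13 in *Stpfld252*, called repressed, and by -0.92 in WT, not called.

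S-adenosylmethionine synthetase turns methionine into the methyl donor of most plant methylations and the precursor of ethylene and polyamines. Its 6 probes fell into separate patterns. The 3 probes of contig MICRO.197 were brighter in WT under drought than in the other groups: MICRO.197.C2 read 13.87 and 13.92 in *Stpfld252* and 15.08 and 14.92 in WT under drought, and 13.68 and 13.70 in *Stpfld252* and 13.86 and 13.94 in WT controls. The line difference under drought was -1.11 for MICRO.197.C2 (adjusted p = 2e-05), -1.02 for MICRO.197.C1 (adjusted p = 2.4e-05), whose call was lost without replicate 1 of WT under drought at -0.97, and -0.83 for MICRO.197.C3, not called. The probes of contig MICRO.43 were brighter instead in *Stpfld252* controls: MICRO.43.C3 read 11.78 and 11.83 there against 10.71 and 10.60 in WT controls, and 10.46 and 10.33 in *Stpfld252* against 10.57 and 10.43 in WT under drought. MICRO.43.C2 and MICRO.43.C3 both differed by 1.15 under control conditions (adjusted p = 8.7e-05 and 4.9e-05). The remaining probe changed with drought by -1.69 in *Stpfld252*, called repressed, and by -0.78 in WT, and its line difference of 0.73 under control conditions was not called.

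Methionine synthase, which methylates homocysteine to methionine, was repressed by drought to like extents in both lines. The changes of MICRO.403.C1, MICRO.403.C3 and MICRO.403.C4 were -1.29 to -1.47 in *Stpfld252* and -0.99 to -1.23 in WT, that of MICRO.403.C3 in WT, -0.99, not reaching 2-fold. Between the lines they differed by -0.06 to 0.02 under drought and by 0.18 to 0.28 under control conditions. Of the 17 aspartate family members, 5 were higher and 2 lower in *Stpfld252* under drought, and 2 were higher and 0 lower under control conditions, with medians of -0.06 and 0.13. Among all probes tested, 5.9% were called higher and 4.88% lower under drought, and 3.78% and 2% under control conditions. The other probes of the drought table had 21% higher and 19.3% lower under drought, and 11.1% and 6.96% under control conditions. In either direction under drought, 41.2% of the family were called, near the 40.3% of those other probes.

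**Figure D5:**
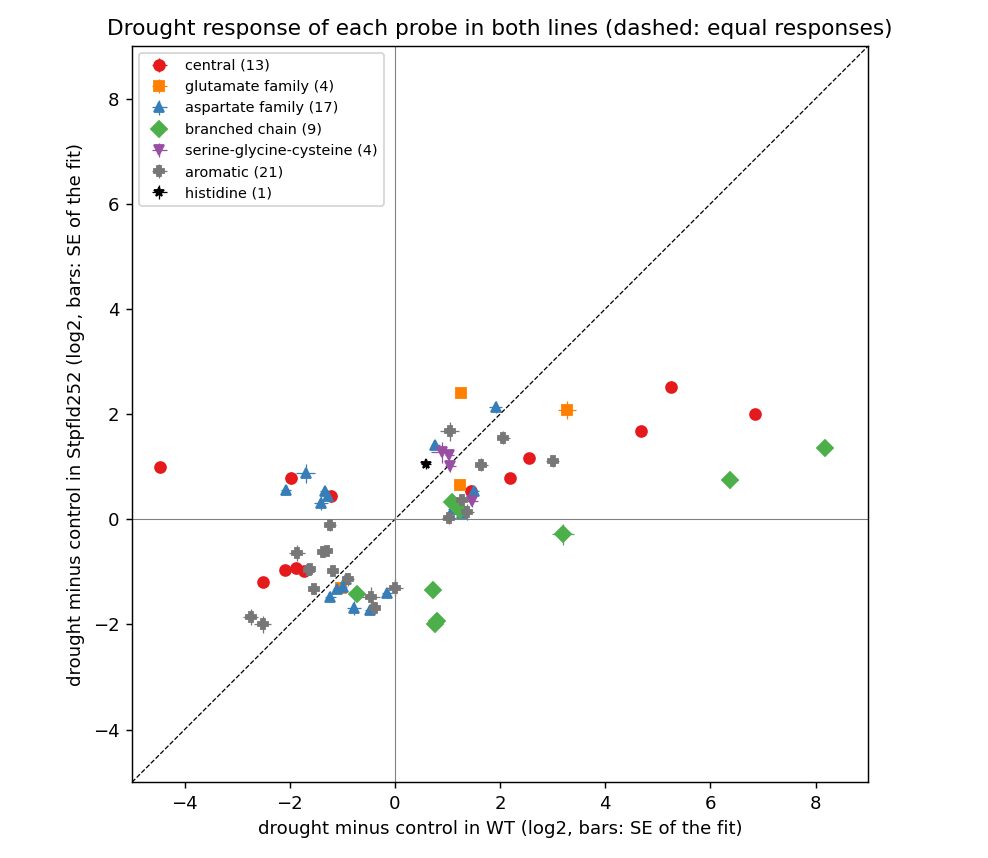
Log2 drought minus control of each of the 69 probes in *Stpfld252* (vertical axis) and in WT (horizontal axis), with bars for the SE of the fit and symbols for the families, and a dashed line where both responses are equal. The plot is a description of the contrasts that chose the probes. The WT axis spans -4.46 to 8.18 and the *Stpfld252* axis -2.0 to 2.52.

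The 4 probes of the glutamate family held no called line difference in either treatment. Of all probes tested, 10.8% were called between the lines under drought and 5.78% under control conditions, so nothing is read from 4 probes. They were chosen by their drought response. In *Stpfld252* 2 were called induced and 1 repressed, beside 5.61% and 7.76% of all probes. In WT 3 were called induced and 1 repressed, beside 8.2% and 10% of all probes. Pyrroline-5-carboxylate synthetase is the entry enzyme of proline synthesis from glutamate. ACDA02183F11.T3m.scf, of that category, read 7.98 and 7.56 in *Stpfld252* and 8.32 and 7.90 in WT under drought, and 5.77 and 5.6 in *Stpfld252* and 4.83 and 4.83 in WT controls. The drought arrays of the lines overlapped, while its control difference was 0.86 and did not reach 2-fold. It was induced by 2.08 in *Stpfld252* and by 3.28 in WT. The second probe of the category, bf_cswbxxxx_0051g07.t3m.scf, was induced by 1.24 in WT, with a change of 0.65 in *Stpfld252* that was not called, and differed between the lines under drought by 0.05. Neither has a described hit.

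Ornithine carbamoyltransferase makes citrulline in arginine synthesis. MICRO.9418.C1 read 10.32 and 10.22 in *Stpfld252* and 10.67 and 10.68 in WT under drought, and 11.62 and 11.54 in *Stpfld252* and 11.70 and 11.69 in WT controls, and was repressed in both, with changes of -1.31 in *Stpfld252* and -1.02 in WT. MICRO.2810.C2, in a category named aspartate racemase, is described as an unknown protein of the aspartate-glutamate racemase family. This probe read 10.40 and 10.29 in *Stpfld252* and 9.68 and 9.84 in WT under drought, and 8.03 and 7.86 in *Stpfld252* and 8.59 and 8.44 in WT controls. It was induced by 2.40 in *Stpfld252* and by 1.25 in WT, and its line differences were 0.58 under drought and -0.57 under control conditions, within 2-fold in both.

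In the serine-glycine-cysteine group, serine acetyltransferase makes the O-acetylserine from which cysteine is built. MICRO.7373.C1 read 12.80 and 12.63 in *Stpfld252* under drought and averaged 12.26 in WT under drought, where replicate 2 read 12.31, and 11.72 and 11.70 in *Stpfld252* and 11.33 and 11.08 in WT controls. It was induced by 1.01 in *Stpfld252* and 1.05 in WT, both close to the 2-fold limit. Without replicate 1 of *Stpfld252* under drought or replicate 2 of *Stpfld252* controls the first was 0.93 or 0.997, and without replicate 2 of WT under drought or of WT controls the second was 0.996 or 0.93, none of them called. The other acetyltransferase probe, bf_ivrootxx_0030g06.t3m.scf, was induced by 1.23 in *Stpfld252* and 1.03 in WT, the second being 0.98 and not called without replicate 2 of WT under drought. Neither differed between the lines past 2-fold.

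MICRO.8912.C1, filed with O-acetylserine (thiol) lyase and described as beta-cyanoalanine synthase, uses cysteine to remove the cyanide that arises when ethylene is made. It read 10.11 and 10.19 in *Stpfld252* and 11.04 and 11.29 in WT under drought, and 9.89 and 9.73 in *Stpfld252* and 9.72 and 9.67 in WT controls. The probe was 2.02-fold lower in *Stpfld252* under drought (-1.02 ± 0.10, adjusted p = 9.9e-05), a call that was lost without replicate 1 of *Stpfld252* under drought, at -0.98, and without replicate 2 of WT under drought, at -0.90. A putative sarcosine oxidase probe, bf_mxflxxxx_0060b02.t3m.scf, read 6.53 and 6.90 in *Stpfld252* and 7.27 and 7.30 in WT under drought, and 5.32 and 5.57 in *Stpfld252* and 6.68 and 6.13 in WT controls. It was induced by 1.27 in *Stpfld252*, with a change of 0.89 in WT, and its differences of -0.57 under drought and -0.95 under control conditions were not called.

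The aromatic group was the largest by probes. DAHP synthase lets carbon into the shikimate pathway, and EPSP synthase, the target of glyphosate, works near its end. In watered plants DAHP synthase probe STDB005I12u.scf read 8.48 and 8.38 in *Stpfld252* and 7.09 and 6.84 in WT, a difference of 1.46 ± 0.10 (adjusted p = 2.4e-05), against 6.74 and 6.75 in *Stpfld252* and 6.61 and 6.57 in WT under drought. PPCAW32THB, for the same enzyme, differed by 1.40 ± 0.16 under control conditions (adjusted p = 0.00033), and the EPSP synthase probe SSBN001F06u.scf, at 7.04 and 7.21 in *Stpfld252* and 5.29 and 5.44 in WT, by 1.76 ± 0.18 (adjusted p = 0.00022). These 3 were repressed by drought in *Stpfld252*, with changes of -1.30 to -1.69, and none was called in WT, where the changes ran from -0.46 upward to about no change. The other DAHP synthase probes, cPRO15B14TH and MICRO.1653.C2, were induced in WT by 1.03 and 1.28, with control differences of 0.78 and 0.96 that did not reach 2-fold. Without replicate 1 of WT controls the change of cPRO15B14TH in WT was 0.98, no longer called.

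Dehydroquinate dehydratase/shikimate dehydrogenase, a bifunctional enzyme in the middle of the pathway, split by contig. The 3 probes of MICRO.7398 were induced in both lines, by 1.04 to 1.68 in *Stpfld252* and by 1.04 to 2.06 in WT, while MICRO.5357.C1 and MICRO.5357.C2 changed by -1.14 and -0.99 in *Stpfld252* and by -0.90 and -1.17 in WT. None of the 5 was called between the lines in either treatment. The induction of MICRO.7398.C1 in *Stpfld252*, 1.04, was 0.96 without replicate 2 of the drought arrays and 0.95 without replicate 2 of the controls, and that of MICRO.7398.C3 in WT, 1.04, was 0.94 and 0.80 without replicate 1 of the drought or control arrays, none of them called.

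Toward phenylalanine, arogenate dehydratase / prephenate dehydratase had 3 probes. MICRO.5796.C1 read 9.34 and 9.35 in *Stpfld252* and 7.83 and 7.70 in WT under drought, and 11.18 and 11.22 in *Stpfld252* and 10.26 and 10.75 in WT controls. It was 2.99-fold higher in *Stpfld252* under drought (1.58 ± 0.15, adjusted p = 6.3e-05). POADP95TP was higher by 1.53 under drought (adjusted p = 0.00013) and by 1.02 under control conditions (adjusted p = 0.0019), the second call being lost without replicate 1 of WT controls, at 0.73. MICRO.1565.C1 differed by 0.61 under drought, not past 2-fold. The drought changes of the 3 probes were -0.95 to -2.0 in *Stpfld252*, that of MICRO.1565.C1 not being called, and -1.61 to -2.74 in WT, all called repressed.

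Tyrosine transaminase removes the amino group of tyrosine, toward tocopherol and breakdown. SDBN002A15u.scf read 9.60 and 9.62 in *Stpfld252* and 11.13 and 11.23 in WT under drought, and 8.35 and 8.66 in *Stpfld252* and 8.29 and 8.07 in WT controls. It was 2.96-fold lower in *Stpfld252* under drought (-1.57 ± 0.12, adjusted p = 2.1e-05). MICRO.7177.C3, in the same category but described as a putative nicotianamine aminotransferase, read 6.09 and 5.63 in *Stpfld252* and 7.47 and 7.48 in WT under drought, and 5.77 and 5.67 in *Stpfld252* and 6.20 and 6.01 in WT controls, a difference of -1.61 ± 0.15 under drought (adjusted p = 5.9e-05). The induction of SDBN002A15u.scf was 1.11 in *Stpfld252*, or 0.95 and not called without replicate 1 of its controls, and 3.00 in WT, and that of MICRO.7177.C3 was 1.36 in WT, against a change of 0.14 in *Stpfld252*.

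Toward tryptophan, the MapMan category of phosphoribosylanthranilate isomerase held 5 probes. MICRO.14868.C1 is described as anthranilate phosphoribosyltransferase-like and also as a C2 domain-containing protein, STMIG39TV as a putative phosphoribosylanthranilate transferase and SDBN001M22u.scf only by an *Arabidopsis* locus name, while the others have no described hit, so that the descriptions do not settle whether these probes read that enzyme. MICRO.14868.C1 read 6.42 and 6.30 in *Stpfld252* and 4.67 and 4.27 in WT under drought, and 6.95 and 7.06 in *Stpfld252* and 6.48 and 6.18 in WT controls. It was not well above background in WT under drought, so that its level there is only a bound. It was at least 3.69-fold higher in *Stpfld252* under drought (adjusted p = 2.7e-05). The bound compares the brighter group's mean with, on each dim array, the higher of the negative control level and the probe's own signal. STMIG39TV, at 4.53 and 4.49 in *Stpfld252* and 4.58 and 4.39 in WT under drought, was not well above background in either, and fell at least 2.5-fold with drought in *Stpfld252* and at least 2.89-fold in WT from control readings of 5.92 and 5.75 in *Stpfld252* and 6.07 and 5.97 in WT. The other 3 changed with drought by -0.11 to -0.62 in *Stpfld252*, none called, and by -1.24 to -1.37 in WT, all called repressed. Indole-3-glycerol phosphate synthase, a later tryptophan enzyme, changed with drought by -0.96 in *Stpfld252* and by -1.64 in WT at MICRO.4441.C1, the second called repressed, with a line difference of 0.58 under drought that did not reach 2-fold.

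Of the 21 aromatic members, 3 were higher and 2 lower in *Stpfld252* under drought and 4 were higher and 0 lower under control conditions. Among all probes tested, the shares were 5.9% and 4.88% under drought and 3.78% and 2% under control conditions. Among the other probes of the drought table they were 21% and 19.3% under drought and 11.1% and 6.96% under control conditions. In either direction under drought, 23.8% of the aromatic members were called, below the 40.3% of those other probes. The single histidine probe, MICRO.65.C1, described as a glutamine amidotransferase/cyclase, read 10.75 and 10.87 in *Stpfld252* and 10.20 and 10.27 in WT under drought, and 9.71 and 9.82 in *Stpfld252* and 9.70 and 9.58 in WT controls. It was induced by 1.04 in *Stpfld252*, which was 0.98 without replicate 2 of the drought arrays and 0.99 without replicate 1 of the controls, neither called, with a change of 0.59 in WT, and its line difference of 0.58 under drought was not called.

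Neighbouring genes of amino acid metabolism give the setting. Of the 14 tested probes that share a contig number with a member without being in the drought table, 0 were called between the lines in either treatment at adjusted p under 0.05 and over 2-fold, and their differences under drought ran from -0.99 to 0.41. Of all probes tested, 10.8% were called in either direction under drought and 5.78% under control conditions. Among 4 amino acid synthesis probes listed for an Fld effect but not for drought, the S-adenosylmethionine synthetase probes POABI58TV and MICRO.4281.C1 were higher in *Stpfld252* in both treatments, by 1.74 and 1.70 under drought and 1.44 and 1.19 under control conditions. These 4 were chosen by the study for a difference between the lines, so that it is no independent evidence.

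The 7 probes of ammonia assimilation and glutamate dehydrogenase and the 44 of amino acid degradation were likewise taken from the study's tables of drought or Fld effects, so that they had been listed for a response on these arrays and their counts say nothing of those pathways at large. Of the 7, 1 was higher and 0 lower in *Stpfld252* under drought, beside 5.9% and 4.88% of all probes. Under control conditions 2 were higher and 4 lower, beside 3.78% and 2% of all probes. The 1 higher under drought was the glutamine synthetase probe MICRO.8061.C1, which was 2.44 higher on the log2 scale in *Stpfld252* under drought and 3.28 higher under control conditions. Of the 44, 4 were higher and 20 lower in *Stpfld252* under drought, beside 5.9% and 4.88% of all probes and 21% and 19.3% of the other probes of the drought table. Under control conditions 7 of the 44 were higher and 11 lower, beside 3.78% and 2% of all probes and 11.1% and 6.96% of the other probes of the drought table. The 3 largest differences of the 44 under drought were at lysine-ketoglutarate reductase/saccharopine dehydrogenase probes, which break lysine down: MICRO.7729.C1 differed by -4.44, MICRO.4464.C2 by -4.16 and MICRO.7180.C1 by -4.12 under drought, and by 1.27, 0.90 and 1.1 under control conditions. Asparagine synthetase, left out of the members, had 1 probe, MICRO.3150.C2, which differed between the lines by -6.23 under drought and 2.97 under control conditions.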

How the data were processed

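The authors deposited 1 scanner output per array, 8 in all, made with Agilent's Feature Extraction. Used from it were each spot's median intensity, its median local background intensity, the processed signal (background-subtracted by that software) and the quality flags, before any normalization between arrays. A table of log2 values was also deposited, which the authors, per the study's methods, made in limma (normexp, quantile, a filter on dim probes). It served as an alternative.

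In R 4.3.3 with limma 3.58.1, normexp (offset 0) was applied to the median signal and its background over all spots, the files having no column for the mean signal that had been planned, followed by quantile normalization and log2. Potato probes were kept when their signal was over 1.1 times the 95th percentile reached by 153 negative control spots (in 1 group or more, on both of its arrays), which left 36250 of 42034. A mean per group was fitted over the 8 arrays (lmFit, eBayes), with Benjamini-Hochberg adjustment over all probes tested and calls at adjusted p under 0.05 and over 2-fold. The fit and the calls, but not the background correction or normalization, were also run on simulated log2 values with independent noise. That simulation held no slide or position effect, so it cannot speak to either. SE values are those of the fit, with 2 arrays per group. Bounds used a floor for each array, 4.09 to 4.29 on the log2 scale, under which 95% of its negative controls fell. The number of arrays limits the precision.

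Members were matched by identifier, without regard to case, to the part of the study's drought table that was analysed here, its first 1785 rows, where the synthesis category ends well inside. Of the 72 rows of that category 1 was left out, and 2 probes stand in 2 subcategories. No value column of the study's tables was used, and categories and descriptions come from those tables. The members, lists and tests were chosen with earlier results of these data known. Values on all arrays were planned for, in each family, the 2 probes with the largest difference between the lines under drought and the 2 with the largest drought change in WT, together with members on the same contig. Values of other probes, and the background of the other probes of the drought table, were added after the values were seen. The fld transgene was not analysed here. Sequences are not printed, because the identifiers were not paired with a sequence table here. Plants were grown for 4 weeks per the labels, and the study's methods give a slightly different age. Figures were drawn with Python 3.11.15 and matplotlib 3.10.9.

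Alternatives were normexp offsets of 16 and 50, the processed signal scaled to each array's 75th percentile, median scaling, cyclic loess, the deposited log2 values, no filter and 2 other filters, a robust prior that follows intensity, fits restricted to the 4 arrays of a comparison, a replicate block, and the removal of 1 array at a time.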

Additional observations from a re-analysis of the deposited data

Results flagged for a closer look

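For 35 of the 69 members the drought response of *Stpfld252* differed from that of WT by over 2-fold in limma's test of the difference itself (adjusted p from 4.4e-07 to 0.016), 13 with a higher and 22 with a lower response in *Stpfld252*. Of all probes tested, 5.82% and 5.97% were called. The members were chosen by the responses that make up this difference, so the values are a description. Each is the drought change in *Stpfld252* minus that in WT, on the log2 scale.

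The responses of glutamate decarboxylase differed by 5.44 at MICRO.3974.C4, 1.3 at bf_swstxxxx_0054e12.t3m.scf and 1.12 at bf_lbchxxxx_0061a05.t3m.scf, but by -4.84 at MICRO.6945.C1. Those in the GABA transaminase category differed by 2.77 for MICRO.100.C1 and 1.66 for MICRO.100.C2. In the alanine-glyoxylate aminotransferase category the difference was -3.0 at ACDA01331G11.T3m.scf and -2.72 at MICRO.8323.C1. The alanine aminotransferases MICRO.1570.C2 and bf_suspxxxx_0002f09.t3m.scf differed by -1.41 and -1.38.

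In the glutamate family the pyrroline-5-carboxylate synthetase probe ACDA02183F11.T3m.scf differed by -1.19 and the probe of the aspartate racemase category, MICRO.2810.C2, by 1.15. Among aspartate family members, the bifunctional kinase probes cSTB47E1TH and MICRO.710.C1 differed by 2.57 and 2.62, and the aspartate kinase probes bf_swstxxxx_0060f06.t3m.scf, MICRO.1787.C1 and MICRO.9291.C1 by 1.71, 1.70 and 1.86. S-adenosylmethionine synthetase probes differed by -1.24 at MICRO.43.C2, -1.26 at MICRO.43.C3 and -1.15 at MICRO.197.C1.

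Branched-chain aminotransferase probes MICRO.10926.C1, MICRO.10925.C1 and MICRO.4764.C1 differed by -6.84, -5.64 and -3.48. Threonine dehydratase differed by -2.77 at MICRO.4585.C1, -2.74 at MICRO.5878.C1 and -2.08 at bf_mxflxxxx_0050d05.t3m.scf, and ketol-acid reductoisomerase by -1.06 at bf_stolxxxx_0011D10.t3m.scf. The beta-cyanoalanine synthase probe MICRO.8912.C1 differed by -1.13.

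In the aromatic group, DAHP synthase differed by -1.30 at PPCAW32THB and -1.31 at STDB005I12u.scf, and EPSP synthase by -1.01 at SSBN001F06u.scf. Tyrosine transaminase probes SDBN002A15u.scf and MICRO.7177.C3 differed by -1.89 and -1.23. In the phosphoribosylanthranilate isomerase category, MICRO.14868.C1 differed by 1.21, with its WT drought level only a bound, and SDBN001M22u.scf by 1.13.

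Leaving out 1 array ended the call of 5 members. For ACDA02183F11.T3m.scf the difference was -0.99 without replicate 2 of *Stpfld252* or replicate 1 of WT under drought. For MICRO.7177.C3 it was -0.99 without replicate 2 of *Stpfld252* under drought, and for SDBN001M22u.scf 0.99 without replicate 1 of *Stpfld252* under drought. For bf_stolxxxx_0011D10.t3m.scf it was -0.90 and -0.98 without replicate 1 of *Stpfld252* or of WT under drought, -0.97 without replicate 1 of *Stpfld252* controls and -0.94 without replicate 2 of WT controls. For SSBN001F06u.scf it was -0.72 and -0.89 without replicate 1 of *Stpfld252* or of WT under drought, -0.92 without replicate 2 of *Stpfld252* controls and -0.93 without replicate 1 of WT controls.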

How the results depend on the processing

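Of 198 counts of called members recomputed under the alternatives, 194 stayed within 1.5 times the reported count. The exception was the 1 member lower in *Stpfld252* than in WT under control conditions, which became 3 with the processed signal and 2 with median scaling, and ranged from 1 to 2 over the fits without 1 array. Of the 27 members called between the lines under drought, 20 remained called under every alternative, and 7 lost the call under at least 1, among them MICRO.100.C2 with median scaling and MICRO.14868.C1 with a normexp offset of 50. Of the 12 called under control conditions, 10 remained. Of the drought calls, 27 of 37 remained in *Stpfld252* and 38 of 53 in WT, and of the 35 called response differences 26 did. The response calls of MICRO.14868.C1, ACDA02183F11.T3m.scf, bf_stolxxxx_0011D10.t3m.scf and SSBN001F06u.scf were lost with both normexp offsets and with the deposited log2 values. That of SSBN001F06u.scf was also lost with the processed signal and with median scaling. The WT drought call of MICRO.9418.C1 was lost with an offset of 50, the processed signal or median scaling. The 6545 member values recomputed took in called and uncalled differences together, and no called difference changed sign. Family medians changed sign with a shift of at least 0.14, the pooled replicate SD, in 3 cases. Smaller shifts were not checked for sign. The median response difference of the aromatic group, 0.19, was -0.18 with the processed signal and -0.25 with the filter on all 8 arrays. The median drought change of the branched-chain group in *Stpfld252*, -0.29, ranged from -0.66 to 0.083 over the fits without 1 array, the highest value without replicate 1 of *Stpfld252* controls. The cause was not tested. Median scaling moved the median drought change of all probes in *Stpfld252* to 0.20, against 0.05.

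With the replicate number as a block (replicate block), 15 members were higher and 12 lower in *Stpfld252* under drought and 11 higher and 1 lower under control conditions, as without it. Arrays with the same number deviated together with correlations of -0.15 to 0.16, so the numbers were not taken as pairs. A fit without 1 array takes the spread of that group from the other groups. With 2 arrays per group, differences near 2-fold were not stable, and signals near 4.1 to 4.3, the level of the negative controls, carry only bounds.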
